A study of Mus musculus with 4 samples.

Results

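The genes described here are 10 genes that control the passage from G1 to S phase: the D-type cyclins Ccnd1, Ccnd2 and Ccnd3, the E-type cyclins Ccne1 and Ccne2, the cyclin-dependent kinase (CDK) inhibitors Cdkn1b, Cdkn2a and Cdkn2b, the pocket protein gene Rb1 and the transcription factor gene E2f1. They were taken by symbol from a table of 22138 genes, and all 10 were found there. All 10 also passed a minimum mean of 0.5 RPKM over the libraries (mapped reads scaled to gene length and library size), as did 12486 genes in all. The 4 RNA-seq libraries came from TT2 cells, a female mouse embryonic stem cell line of mixed C57BL/6 and CBA background, kept without feeder cells in serum medium with LIF. One group received control siRNA (n = 2) and the other siRNA against Hnrnpk (n = 2), which encodes the RNA- and DNA-binding protein hnRNP K. Both groups were transfected with 100 nM siRNA, reseeded, transfected again 24 hours later with 50 nM, and harvested about 72 hours after that. Going by its title, the series asks about hnRNP K in silencing by the histone methyltransferase SETDB1. The design text calls the libraries biological replicates, but nothing read here says whether they came from separate cultures, so p-values measure the spread between these libraries of a single cell line. The siRNA sequences are likewise not given.

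In most mammalian cells, mitogens raise the D-type cyclins, which bind CDK4 and CDK6 and start the phosphorylation of the retinoblastoma protein RB1. Cyclin E with CDK2 completes it, and E2F1 and its relatives are then released from RB1 and activate genes for DNA replication. INK4 proteins, such as the p16 product of Cdkn2a and the p15 product of Cdkn2b, block CDK4 and CDK6, while p27, the product of Cdkn1b, binds cyclin E-CDK2. Embryonic stem cells are known for a short G1 phase, for high cyclin E activity and for low INK4 levels. Cell cycle phase and protein were not measured in this series, so all values below are transcript levels.

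Hnrnpk itself, the targeted gene, stood at 236 and 226 RPKM with control siRNA, against 68.0 and 70.5 RPKM after Hnrnpk siRNA, in the direction of the labels. On the log2 scale Hnrnpk changed by -1.73 ± 0.0629 (SE, adjusted p = 6.59e-08 by limma). Of its longest coding transcript, 50.5% is shared with other annotated genes, namely Gm4130, Gm7964 and Rmi1, so the level at the locus is uncertain. Gm7964 also fell, from 87.7 ± 0.915 to 22.4 ± 0.457 RPKM (log2 change -1.94, limma adjusted p = 3.08e-08, errors are SD of n = 2). The RPKM values summed to between 359659 and 390467 per library, and between 17566 and 18077 genes were above 0. The commonest ratio between low values put the depth of control replicate 2 and of Hnrnpk siRNA replicates 1 and 2 at 0.981, 0.891 and 0.882 of control replicate 1. Only 3.11%, 2.10% and 2.49% of the low genes compared had that ratio, so these depths are rough. The absolute depth is unknown, so no counting error is attached to the values. Markers of the line were high in both groups: 10 pluripotency genes summed to 2782 to 2880 RPKM with control siRNA and 2660 to 2703 RPKM after Hnrnpk siRNA. By the rule given below, 2 of them were called higher and 4 lower, against 32.2% and 35.0% of all genes tested. Fibroblast markers were low, their 10 genes summing to 9.11 to 10.7 RPKM and to 5.26 to 5.49 RPKM in the same order. Fap was at 0 in every library, and of the 3 tested 2 were called lower, too few to set against the 35.0% of all genes.

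After Hnrnpk siRNA, transcripts of Ccnd1, Ccnd2, Ccne1, Cdkn2a and E2f1 fell, and those of Rb1, Cdkn2b and Cdkn1b rose. The abundant cyclin Ccnd3 and the scarce cyclin Ccne2 did not pass the test. Changes are given as log2 differences of RPKM + 0.5 between groups, tested with limma across all 12486 genes; genes whose p, adjusted by Benjamini-Hochberg, was under 0.05 are said to be called. By this rule 8 of the 10 members were called, against 67.2% of all genes tested, so the share is near the background and does not set the members apart. In each direction, 3 members were called higher against 32.2% of all genes, and 5 lower against 35.0%. For 8 members the groups did not overlap, against 84.7% of all genes, and 7 members were called with a change past 0.5 on the log2 scale, against 31.7%. The members were chosen with earlier results of these data known, so the last difference is no test of them. Only Ccnd2 was called with a change of at least 2-fold on this scale, a size reached by 8.51% of all genes tested. Across the 12486 genes the median log2 change was -0.015. The smallest two-sided p of an exact permutation test at this size is 0.333, so the calls depend on the pooling of variance across genes in limma.

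**Figure D1:**
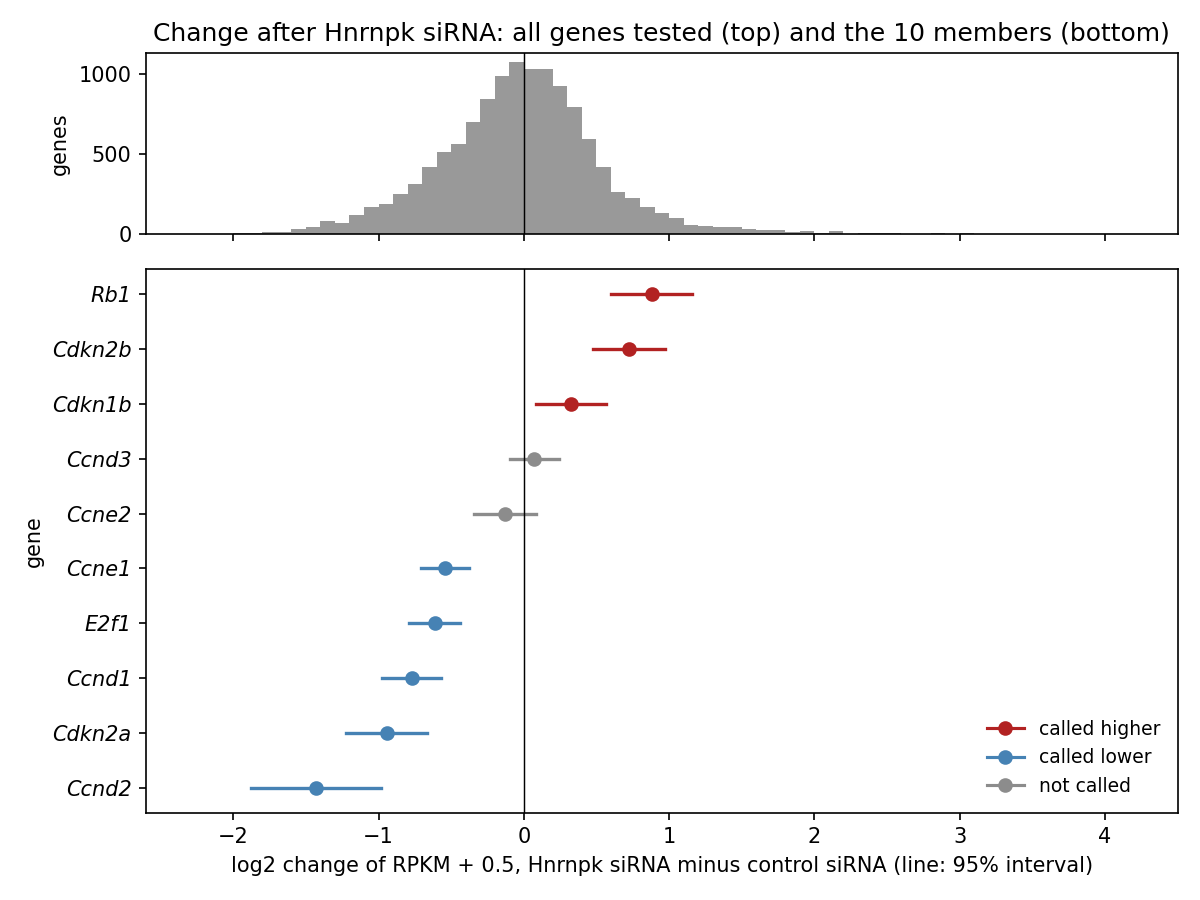
The upper panel counts all 12486 genes tested by their log2 change of RPKM + 0.5 (Hnrnpk siRNA minus control siRNA), and the lower panel gives the 10 members with 95% intervals from limma. The members run from -1.43 for Ccnd2 to 0.88 for Rb1, and the intervals of Ccnd3 and Ccne2 cross 0.

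The levels of the members spanned a wide range, and RPKM, being per length, allows a rough comparison of them. The annotation and counting behind the values were not given, and some members, such as Ccnd3, share sequence with other genes. In the control libraries the order of mean RPKM was Ccnd3, Ccne1, Ccnd1, E2f1, Ccnd2, Cdkn1b, Ccne2, Rb1, Cdkn2a and Cdkn2b. Ccnd3 and Ccne1 lay above 98.2% and 97.5% of the genes tested, whereas Cdkn2b lay above only 8.55%. Neighbours in that order had overlapping libraries in 3 places: Ccnd2 with Cdkn1b, Cdkn1b with Ccne2, and Rb1 with Cdkn2a. After Hnrnpk siRNA no neighbours overlapped, and the lower part of the order was Cdkn1b, Rb1, Ccne2, Ccnd2, Cdkn2b and Cdkn2a. Ccnd2 thus went from the fifth place to the eighth, and Cdkn2a and Cdkn2b exchanged places. The last exchange was narrow: after Hnrnpk siRNA the nearest libraries stood at 1.84 RPKM for Cdkn2b and 1.83 RPKM for Cdkn2a.

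**Figure D2:**
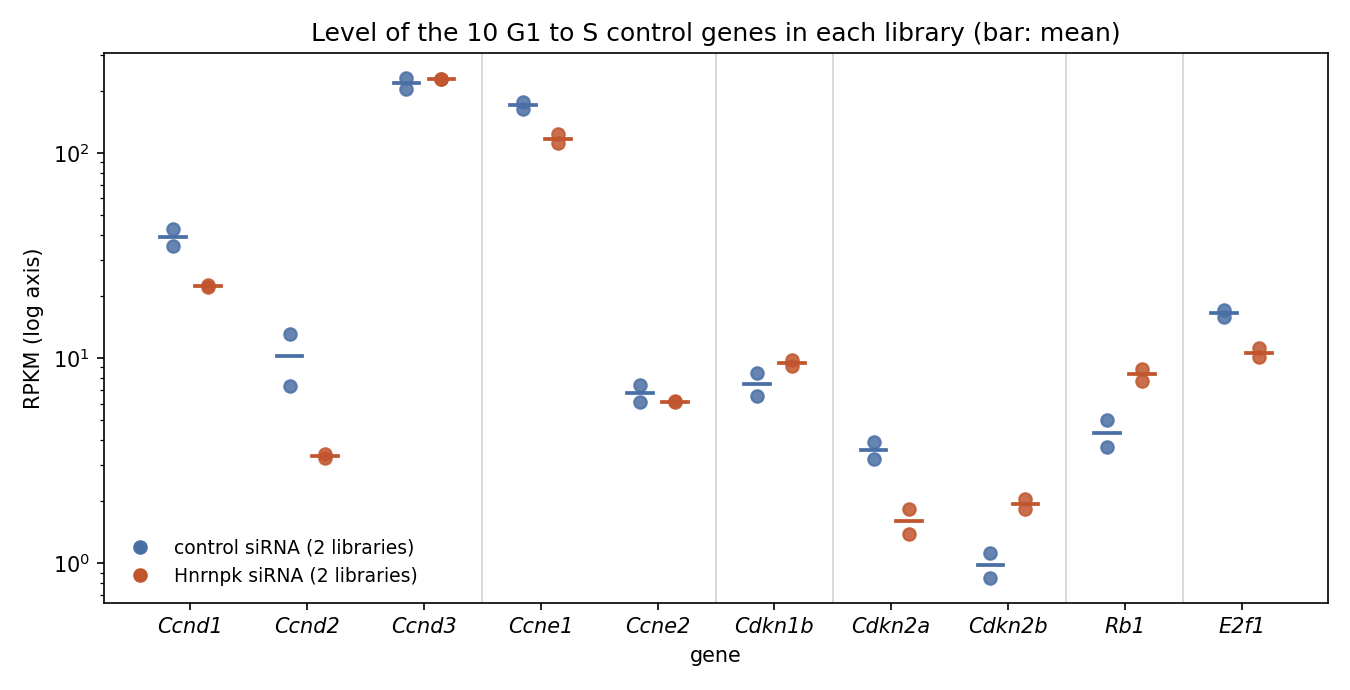
RPKM of each member in each library on a log axis, with a short bar at the mean of each group (n = 2). Ccnd3 and Ccne1 sit above 100 RPKM in all libraries, and the groups overlap for Ccnd3 and Ccne2.

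The D-type cyclins, the partners of CDK4 and CDK6, did not move together. Ccnd1 (ENSMUSG00000070348; protein-coding, minus strand of chromosome 7 from 144929931 to 144939925 in GRCm38), the D-type cyclin best known as a mitogen and Wnt target, had 35.0 and 42.8 RPKM with control siRNA and 22.8 and 22.1 RPKM after Hnrnpk siRNA. Both Hnrnpk siRNA libraries lay below both controls. The mean fell by 42.3%, from 38.9 ± 5.47 to 22.5 ± 0.505 RPKM (SD, n = 2 each), a log2 change of -0.77 ± 0.0898 (SE; adjusted p = 5.06e-05 by limma). In the annotation, 29.5% of the longest Ccnd1 transcript is shared with LTO1, listed in the table as Oraov1, which overlaps it on the other strand. Oraov1 went the other way, from 2.10 ± 0.0697 to 3.59 ± 0.245 RPKM (log2 change 0.65, limma adjusted p = 0.000134; errors are SD of n = 2). Use of strand in the counting is not stated, so reads in the shared stretch cannot be assigned with certainty.

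Ccnd2 (ENSMUSG00000000184; protein-coding, minus strand of chromosome 6 from 127125162 to 127152193 in GRCm38), a D-type cyclin used in germ cells and neural progenitors among others, had the largest change of the 10. It stood at 7.31 and 13.1 RPKM with control siRNA, against 3.26 and 3.41 RPKM after Hnrnpk siRNA. The control libraries differed by a factor of 1.79 from each other, yet the lower of them was still 2.15 times the higher Hnrnpk siRNA library. The group means were 10.2 ± 4.10 and 3.33 ± 0.101 RPKM (SD, n = 2 each), a fall of 3.06-fold. The log2 change of -1.43 ± 0.199 (SE; adjusted p = 0.000167 by limma) was larger in size than that of 97.2% of the genes tested. Without control replicate 1 it was -1.83 and without control replicate 2 it was -1.03.

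Ccnd3 (ENSMUSG00000034165; protein-coding, plus strand of chromosome 17 from 47505051 to 47599691 in GRCm38), the third D-type cyclin, was by far the most abundant of them. Its values were 205 and 232 RPKM with control siRNA and 229 in both Hnrnpk siRNA libraries, which lay between the controls. The log2 change of 0.071 ± 0.0751 (SE; adjusted p = 0.423 by limma) was not called, and its 95% interval ran from -0.097 to 0.24. The estimate became -0.021 under quantile normalization and -0.019 without control replicate 1. Its transcript shares 58.3% of its length with other annotated transcripts, namely the overlapping gene Bysl and the pseudogene Ccnd3-ps, so its level is uncertain. Bysl had 45.5 ± 2.50 and 48.7 ± 1.90 RPKM (SD, n = 2 each) and was not called.

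Since Ccnd3 dominated, the summed RPKM of the D-type cyclins moved little: 247 and 288 in the control libraries against 255 and 254 after Hnrnpk siRNA. The make-up of that sum shifted more. Ccnd3 supplied 82.8% and 80.6% of it in the controls and 89.8% and 90.0% after Hnrnpk siRNA. The share of Ccnd1 went from 14.5 ± 0.477% to 8.82 ± 0.179%, and that of Ccnd2 from 3.76 ± 1.13% to 1.31 ± 0.0424% (SD, n = 2 each). The groups did not overlap for any of the 3 shares, but the shares depend on the uncertain level of Ccnd3.

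**Figure D3:**
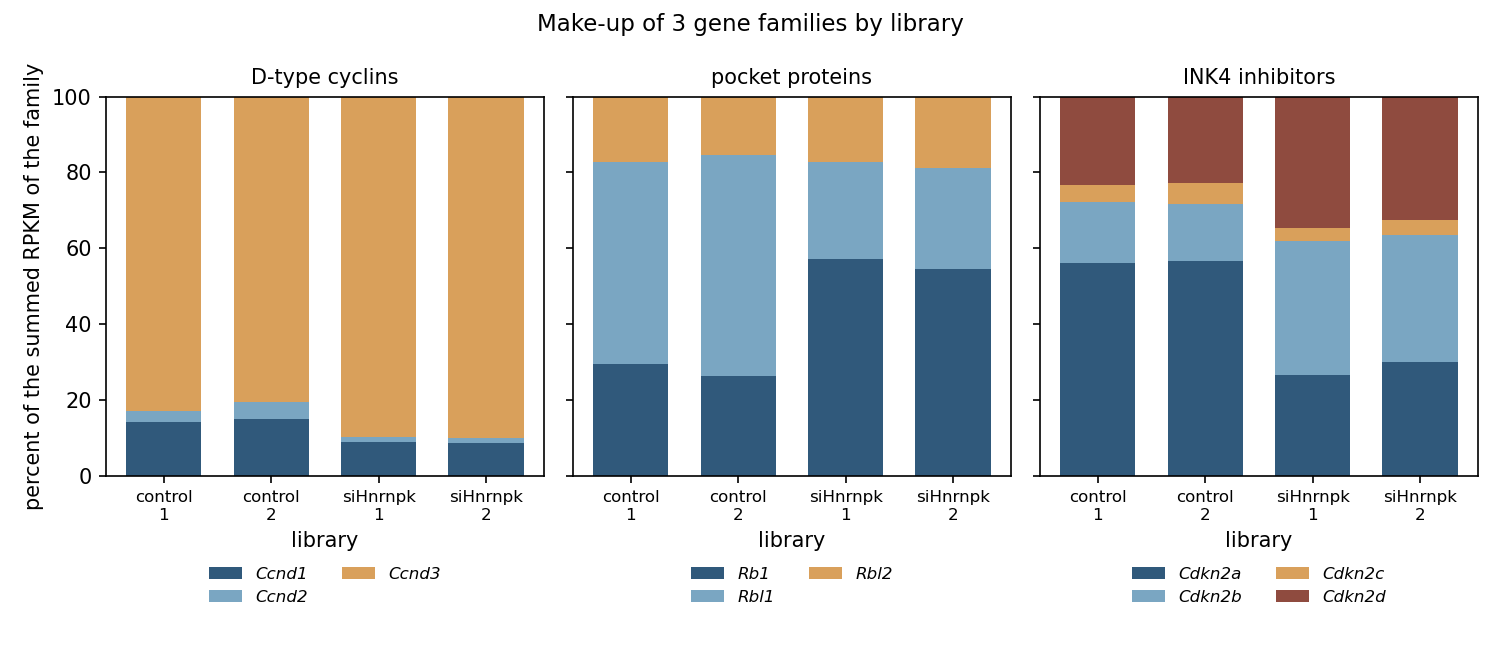
Stacked bars show, for each library, the percent of the summed RPKM of a family that each gene supplied, for the D-type cyclins, the pocket proteins and the INK4 inhibitors. Rb1 supplies 29.6% and 26.4% of the pocket protein sum in the control libraries and 57.1% and 54.5% after Hnrnpk siRNA.

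The E-type cyclins activate CDK2 late in G1. Ccne1 (ENSMUSG00000002068; protein-coding, minus strand of chromosome 7 from 38097984 to 38107534 in GRCm38) stood at 164 and 178 RPKM with control siRNA, against 112 and 123 RPKM after Hnrnpk siRNA. The groups did not overlap. The means were 171 ± 9.75 and 117 ± 7.98 RPKM (SD, n = 2 each), a fall by 31.3% and a log2 change of -0.54 ± 0.0734 (SE; adjusted p = 0.000141 by limma). No other annotated transcript shared sequence with Ccne1 at 95% identity over 100 bases.

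Ccne2 (ENSMUSG00000028212; protein-coding, plus strand of chromosome 4 from 11191351 to 11204779 in GRCm38) was far lower, at 6.11 and 7.42 RPKM with control siRNA and 6.17 and 6.09 RPKM after Hnrnpk siRNA. Control replicate 1 lay among the Hnrnpk siRNA libraries. The log2 change of -0.13 ± 0.0950 (SE; adjusted p = 0.263 by limma; 95% interval -0.34 to 0.087) was not called. It was called lower with GC trends removed (-0.28, limma adjusted p = 0.0165). The log2 change was -0.26 without control replicate 1 and 0.0038 without control replicate 2. A stretch of 20.4% of its transcript overlaps Ints8, which had 15.7 ± 0.0671 and 13.9 ± 0.608 RPKM (SD, n = 2 each) and was not called. Ccne1 supplied between 94.8% and 96.4% of the summed E-type cyclin RPKM in every library, and the sum was 170 and 185 in the controls against 118 and 129 after Hnrnpk siRNA.

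Among the inhibitors, Cdkn1b (ENSMUSG00000003031; protein-coding, plus strand of chromosome 6 from 134920401 to 134925513 in GRCm38), which encodes p27, moved least. It had 8.42 and 6.55 RPKM with control siRNA and 9.09 and 9.78 RPKM after Hnrnpk siRNA. The groups did not overlap, but the nearest libraries differed by a factor of only 1.08. The means were 7.48 ± 1.32 and 9.43 ± 0.482 RPKM (SD, n = 2 each), which limma put at 0.32 ± 0.108 on the log2 scale (SE; adjusted p = 0.0228). The call was lost with GC trends removed (0.27, limma adjusted p = 0.0569) and with no filter on low values (0.32, limma adjusted p = 0.0970). The log2 change was 0.15 without control replicate 2, 0.28 without Hnrnpk siRNA replicate 2 and 0.49 without control replicate 1.

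Cdkn2a and Cdkn2b lie next to each other on chromosome 4 and are both read from the minus strand, and their transcripts moved in opposite directions. Cdkn2a is unusual in having a pair of promoters. The upstream one gives the transcript of p19ARF, which protects p53, and the downstream one that of the INK4 protein p16; the proteins share an exon in different reading frames. The table has a single Cdkn2a value, so the transcripts cannot be told apart in it. The start regions are shown because each would be a separate place of regulation at this locus. They are the bases before each start in RefSeq on GRCm38.p6, ended before the first annotated exon base and read 5′ to 3′ along the minus strand. Capitals mark CCCTCCC on either strand, the core of the C-rich element through which hnRNP K is known to bind the Myc promoter, and TTTNNCGC with C or G at each N, the E2F site.
Cdkn2a, downstream start (p16), chr4:89282193-89282442: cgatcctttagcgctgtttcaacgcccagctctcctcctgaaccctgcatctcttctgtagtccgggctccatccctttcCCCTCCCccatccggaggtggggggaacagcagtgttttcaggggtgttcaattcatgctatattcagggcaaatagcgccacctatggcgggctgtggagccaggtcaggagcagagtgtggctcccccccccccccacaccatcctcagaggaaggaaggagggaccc
Cdkn2a, upstream start (p19ARF), chr4:89294654-89294869: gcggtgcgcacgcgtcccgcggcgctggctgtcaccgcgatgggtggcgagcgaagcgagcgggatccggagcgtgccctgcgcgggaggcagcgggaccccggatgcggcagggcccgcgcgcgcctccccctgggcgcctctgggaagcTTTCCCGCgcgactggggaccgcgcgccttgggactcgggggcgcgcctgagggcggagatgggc
Cdkn2b, chr4:89311040-89311282: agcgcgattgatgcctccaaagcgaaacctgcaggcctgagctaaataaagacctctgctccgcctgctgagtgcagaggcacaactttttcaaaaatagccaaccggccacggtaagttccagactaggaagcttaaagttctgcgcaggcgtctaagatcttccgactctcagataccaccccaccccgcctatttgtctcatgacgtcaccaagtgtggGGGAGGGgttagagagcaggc
The E2F letters stand 99 to 92 bases before the upstream Cdkn2a start, and are found in 1.86% of the 32851 RefSeq windows of 250 bases. The C-rich letters stand 170 to 164 bases before the downstream Cdkn2a start and, on the opposite strand, 28 to 22 bases before the Cdkn2b start; 19.7% of all windows hold them. The motifs did not overlap in these printed stretches. Windows were found for 6 of the 10 members, 8 windows in all, of which 1 held the E2F letters and 4 the C-rich letters. Ccnd1, Ccnd2, Ccne2 and Rb1 had none. Of the 4, 1 was the E2f1 window, whose 250 bases all lay within annotated exons. In a Ccnd3 window 3 matches of the C-rich letters overlapped one another. Binding was not measured, and a match of letters is only a description.

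Cdkn2a (ENSMUSG00000044303; protein-coding, minus strand of chromosome 4 from 89274471 to 89294653 in GRCm38) stood at 3.90 and 3.20 RPKM with control siRNA, against 1.39 and 1.83 RPKM after Hnrnpk siRNA. Both Hnrnpk siRNA libraries were lower than both controls. The means of 3.55 ± 0.490 and 1.61 ± 0.316 RPKM (SD, n = 2 each) correspond to a fall of 2.21-fold and a log2 change of -0.94 ± 0.124 (SE; adjusted p = 0.00011 by limma). Cdkn2b (ENSMUSG00000073802; protein-coding, minus strand of chromosome 4 from 89306299 to 89311039 in GRCm38) stood at 1.12 and 0.850 RPKM in the controls and at 1.84 and 2.05 RPKM after Hnrnpk siRNA. Here both Hnrnpk siRNA libraries were higher. Its mean rose from 0.983 ± 0.188 to 1.94 ± 0.143 RPKM (SD, n = 2 each), a log2 change of 0.73 ± 0.110 (SE; adjusted p = 0.000287 by limma) that the added 0.5 RPKM compresses at so low a level.

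The ratio of Cdkn2a to Cdkn2b RPKM was therefore 3.49 and 3.77 in the control libraries and 0.751 and 0.895 after Hnrnpk siRNA. A ratio within a library shows unequal change of the pair, whatever the scaling. By GENCODE M21 position, the nearest genes with RPKM values on either side were Mtap (93390 bases from Cdkn2a) and Dmrta1 (368397 bases from Cdkn2b). Mtap fell from 47.7 ± 0.369 to 37.1 ± 0.367 RPKM (log2 change -0.36, limma adjusted p = 0.000516, errors are SD of n = 2). Dmrta1 was too low to test, at 0.104 to 0.139 RPKM. The nearest genes of Ccnd1, Ccnd2 and Ccne1, chosen in the same way, were also read. Uri1, listed as C80913, which lies 74433 bases from Ccne1, fell from 53.1 ± 1.19 to 29.9 ± 0.276 RPKM (log2 change -0.82, limma adjusted p = 3.32e-06, errors are SD of n = 2). Tigar, listed as 9630033F20Rik, which lies 15605 bases from Ccnd2, rose from 33.0 ± 2.86 to 42.1 ± 2.52 RPKM (log2 change 0.35, limma adjusted p = 0.00293, errors are SD of n = 2), opposite to Ccnd2. The processed pseudogene Gm4968, 81569 bases away on the other side of Ccnd2, was called higher at under 1 RPKM (log2 change 0.35, limma adjusted p = 0.0249). Tpcn2, 246599 bases from Ccnd1, and 1600014C10Rik, 75683 bases from Ccne1, were not called.

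Rb1 (ENSMUSG00000022105; protein-coding, minus strand of chromosome 14 from 73183673 to 73325822 in GRCm38), whose product holds E2F factors inactive until it is phosphorylated, rose, as did Cdkn2b. Rb1 had the higher change of the pair on the log2(RPKM + 0.5) scale, but Cdkn2b had the higher ratio of mean RPKM (1.98 against 1.92) and the higher log2 change with GC trends removed (0.84 against 0.79). It stood at 4.97 and 3.67 RPKM with control siRNA, against 8.88 and 7.75 RPKM after Hnrnpk siRNA. The lowest Hnrnpk siRNA library was 1.56 times the highest control. The means were 4.32 ± 0.922 and 8.31 ± 0.796 RPKM (SD, n = 2 each), a rise by 92.4% and a log2 change of 0.88 ± 0.124 (SE; adjusted p = 0.000181 by limma). The related pocket protein gene Rbl1, which encodes p107, went the other way, from 8.51 ± 0.597 to 3.88 ± 0.119 RPKM (log2 change -1.04, limma adjusted p = 4.75e-06; errors are SD of n = 2). The sum of Rb1, Rbl1 and Rbl2 was 16.8 and 13.9 RPKM in the controls and 15.5 and 14.2 RPKM after Hnrnpk siRNA, with overlapping groups. Within it, the ratio of Rb1 to Rbl1 went from 0.557 and 0.454 to 2.24 and 2.04.

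E2f1 (ENSMUSG00000027490; protein-coding, minus strand of chromosome 2 from 154559407 to 154569892 in GRCm38) encodes the best-known activator of the E2F family. It had 17.2 and 15.9 RPKM with control siRNA and 10.1 and 11.1 RPKM after Hnrnpk siRNA. The groups did not overlap. The means were 16.5 ± 0.884 and 10.6 ± 0.734 RPKM (SD, n = 2 each), a fall by 35.7% and a log2 change of -0.61 ± 0.0769 (SE; adjusted p = 8.28e-05 by limma). The other activators, E2f2 and E2f3, fell by similar amounts, with log2 changes of -0.52 and -0.56. E2f1 thus supplied 49.2% and 46.5% of the summed RPKM of the 3 activators in the controls and 45.3% and 48.9% after Hnrnpk siRNA, while the sum itself went from 34.8 and 34.2 to 22.3 and 22.8 RPKM.

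The rest of the pathway was read from 6 lists of genes, each set beside the 67.2% of all genes called and their median of -0.015. Of the 11 other pocket protein, E2F and DP genes, 8 were called lower and 2 higher, with a median log2 change of -0.52. Besides Rbl1, the genes that fell included Tfdp1, the main dimer partner of E2F factors, which fell from 149 ± 8.20 to 81.2 ± 2.66 RPKM (log2 change -0.87; errors are SD of n = 2), and the atypical repressors E2f7 and E2f8, with log2 changes of -0.79 and -0.77. E2f6, a repressor that works without pocket proteins, rose from 11.8 ± 0.751 to 20.0 ± 0.277 RPKM (log2 change 0.74; errors are SD of n = 2). E2f5 was also called higher (0.37), E2f4 (-0.38) and Tfdp2 (-0.25) were called lower, and Rbl2 (0.096) was not called. The limma adjusted p of the named genes that were called in this list was at most 0.0108.

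The kinases and activators that the G1 cyclins work with changed less. Of 7 genes, 4 were called lower and 1 higher, with a median of -0.21. Cdk6 fell from 11.3 ± 0.897 to 7.02 ± 0.085 RPKM (log2 change -0.64, limma adjusted p = 7.26e-05; errors are SD of n = 2), whereas Cdk4, far more abundant at 161 to 182 RPKM, had a log2 change of 0.089 and was not called. The phosphatase gene Cdc25a, the CDK-activating kinase subunit gene Mnat1 and Cdk2 were called lower by 0.29, 0.24 and 0.21 in size, and Ccnh was called higher by 0.19; without Hnrnpk siRNA replicate 1 the calls of Cdk2 (adjusted p = 0.0694) and Ccnh (adjusted p = 0.101) were lost, and Ccnh also lost its call without Hnrnpk siRNA replicate 2 and with GC trends removed (log2 change 0.065). Without Hnrnpk siRNA replicate 1, 3 genes of this list were called.

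Of the 4 other CDK inhibitor genes, 3 could be tested and all 3 were called higher; their median was 0.71, or 1.44 with GC trends removed, where Cdkn2d has no value. Cdkn1a, the p53 target that encodes p21, stood at 25.6 and 16.2 RPKM with control siRNA, against 73.4 and 79.5 RPKM after Hnrnpk siRNA (log2 change 1.88, SE 0.162, limma adjusted p = 7.86e-06). Cdkn1c, which encodes p57, rose from 4.20 ± 0.0659 to 7.19 ± 0.272 RPKM (log2 change 0.71, limma adjusted p = 3.35e-05; errors are SD of n = 2). Cdkn2d (0.30, adjusted p = 0.0308) lost its call in 4 alternatives, where the adjusted p reached 0.209. Cdkn2c was too low to test, at 0.317 and 0.304 RPKM in the controls and 0.177 and 0.226 RPKM after Hnrnpk siRNA, with both Hnrnpk siRNA libraries below both controls. With Cdkn1a dominant, Cdkn1b made up 22.0% and 24.2% of the summed RPKM of the CIP/KIP inhibitors in the controls and 10.2% and 10.1% after Hnrnpk siRNA, although its own RPKM was higher.

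E2F target genes, which act in DNA replication and nucleotide supply, went both ways. Of 20 genes, 7 were called lower, 3 higher and 10 not at all, with a median of -0.030 that became -0.16 under quantile normalization. The thymidine kinase gene Tk1 fell most, from 26.1 ± 1.95 to 11.3 ± 0.572 RPKM (log2 change -1.17, limma adjusted p = 1.51e-06; errors are SD of n = 2). Tyms (thymidylate synthase, -0.79), Pola1 (a DNA polymerase subunit, -0.58), Mcm6 (a subunit of the replicative helicase, -0.52) and Rrm1 (ribonucleotide reductase, -0.37) also fell, at limma adjusted p of at most 0.000471. The licensing factor gene Cdt1 (0.30), Mybl2 (0.23) and Cdk1 (0.18) were called higher, and Ccna2, Pcna and Rrm2 were not called. Without control replicate 2, 6 of the 20 were called.

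Of the 16 ubiquitin ligase genes that control the stability of G1 cyclins and p27, 5 were called higher and 4 lower, with a median of 0.070 that became -0.036 under quantile normalization. Cks1b, the cofactor with which SKP2 recognises p27, rose from 141 ± 5.97 to 209 ± 5.74 RPKM (log2 change 0.57; errors are SD of n = 2), while Skp2 itself (-0.14) was not called. Fbxo4 (0.85) and Cul4b (0.50) rose, and Rnf123 (-0.67), a subunit of another p27 ligase, and Fbxo31 (-0.48), linked to cyclin D1 turnover, fell. The limma adjusted p of these called genes was at most 0.000175.

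The last list holds Polycomb genes and T-box factors known to repress the Cdkn2a-Cdkn2b locus. Of its 11 genes 10 were tested, of which 6 were called higher and 2 lower, with a median of 0.32. Tbx3 rose from 15.6 ± 1.11 to 62.6 ± 2.06 RPKM (log2 change 1.97, limma adjusted p = 6.11e-08; errors are SD of n = 2). Bmi1 rose from 0.899 ± 0.0854 to 2.76 ± 0.0341 RPKM (log2 change 1.22, limma adjusted p = 3.59e-06; errors are SD of n = 2). Cbx8 (0.85) and Eed (0.48) rose as well. Cbx8, 1 of the 6 called higher, had 0.347 and 0.326 RPKM in the controls and 1.01 in both Hnrnpk siRNA libraries. It thus passed the filter only through the group where it was high. Cbx7, the most abundant of the Cbx pair listed, fell from 59.3 ± 1.15 to 42.3 ± 1.07 RPKM (log2 change -0.48, limma adjusted p = 8.83e-05, errors are SD of n = 2).

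**Figure D4:**
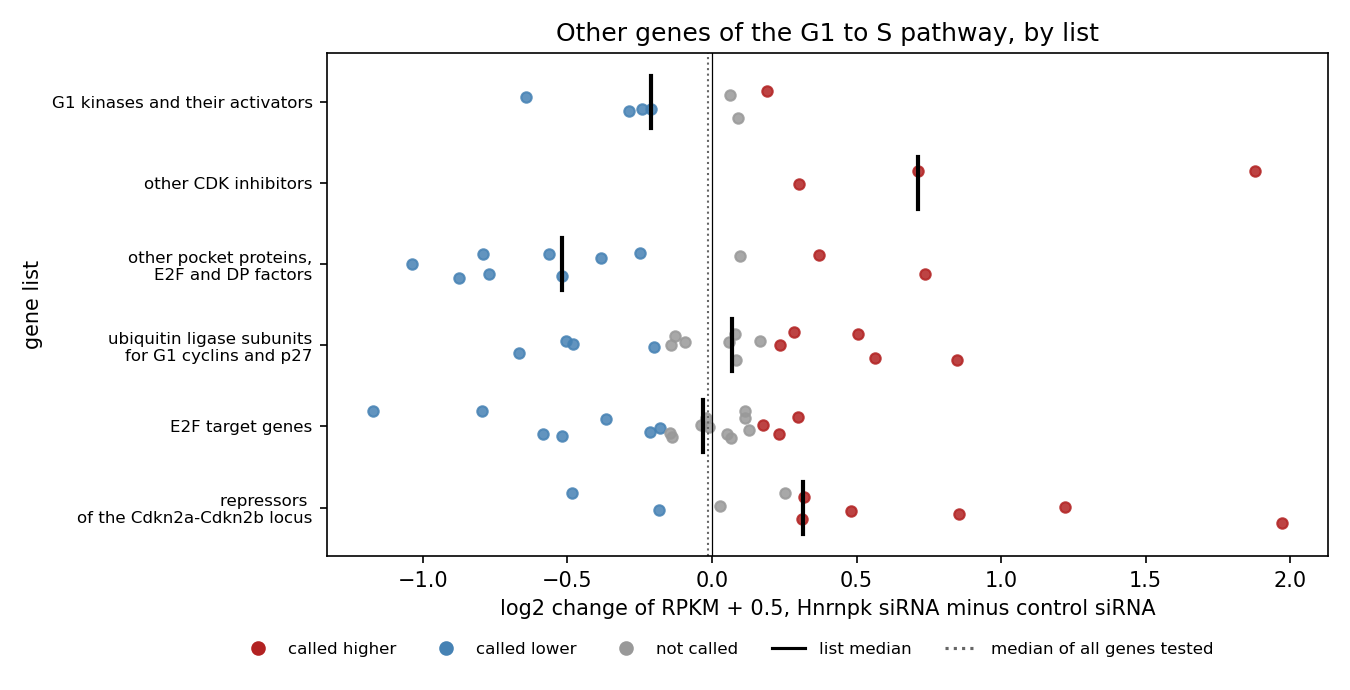
Log2 change of RPKM + 0.5 (Hnrnpk siRNA minus control siRNA) of each tested gene in the 6 pathway lists, coloured by its limma call, with the list median as a black bar and the median of all genes as a dotted line. The lists' medians run from -0.52 for the pocket protein, E2F and DP genes to 0.71 for the other CDK inhibitors.

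Genes with the most similar pattern over the 4 libraries were found by the distance between log2(RPKM + 0.5) values, each gene centred on its own mean, for the members with the highest and the lowest change. Nearest to Rb1 were A930001N09Rik, Polr2a and Gm6880, at distances of 0.060 to 0.080. Like Rb1, Polr2a was higher in control replicate 1 (244 RPKM) than in control replicate 2 (193 RPKM), and higher again after Hnrnpk siRNA (412 and 357 RPKM). Nearest to Ccnd2 were Slc1a4, Ankrd34a and Pck2, at larger distances of 0.35 to 0.37. Slc1a4 had 17.5 and 28.8 RPKM in the controls and 10.2 and 10.5 RPKM after Hnrnpk siRNA, and so shared the higher value of Ccnd2 in control replicate 2. These distances are a description over 4 libraries.

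Markers of other cell states moved between the same groups. The 10 primitive endoderm markers summed to 17.4 to 18.5 RPKM in the controls and 43.4 to 44.7 RPKM after Hnrnpk siRNA, and 5 of the 7 tested were called higher. The trophectoderm markers (9 in the table) summed to 29.3 to 31.6 and 58.3 to 60.6 RPKM, with 5 of 6 tested called higher, and the two-cell-like markers (7 in the table) to 1.08 to 1.21 and 46.4 to 54.2 RPKM, with all 7 called higher. Germ layer markers, which share Sox17 and Eomes with the primitive endoderm and trophectoderm lists, summed to 107 to 119 and 93.4 to 103 RPKM. Most of that sum was Tubb3, at 99.0 and 111 RPKM in the controls and 82.2 and 92.6 RPKM after Hnrnpk siRNA. Of the germ layer markers, 3 were called higher and 4 lower. Gsc, among those called higher, had a control mean of 0.467 RPKM and also passed the filter only through Hnrnpk siRNA. The same held for all 7 two-cell-like markers, with control means from 0.0271 RPKM (Zscan4f) to 0.397 RPKM (Arg2). It held as well for the primitive endoderm marker Pdgfra, with a control mean of 0.170 RPKM. For genes that passed in this way, the filter itself fixed the direction of change. Of all genes tested, 32.2% were called higher. The part of the cell state markers in the changes of the members was not tested. In bulk RNA, fewer cells that express a gene and less RNA per cell cannot be told apart.

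All 8 members called kept their direction in all 13 processing alternatives tried. In those that used all 4 libraries, 7 of them kept their call, the exception being Cdkn1b. Leaving out 1 library left 1 library in a group. The spread then came from the other group only, so a call kept there is weak evidence. With a replicate block the adjusted p was smaller than as reported (limma, Ccnd2 3.63e-11 against 0.000167). The share of all called genes that kept their call was not computed, so these counts do not set the members apart.

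**Figure D5:**
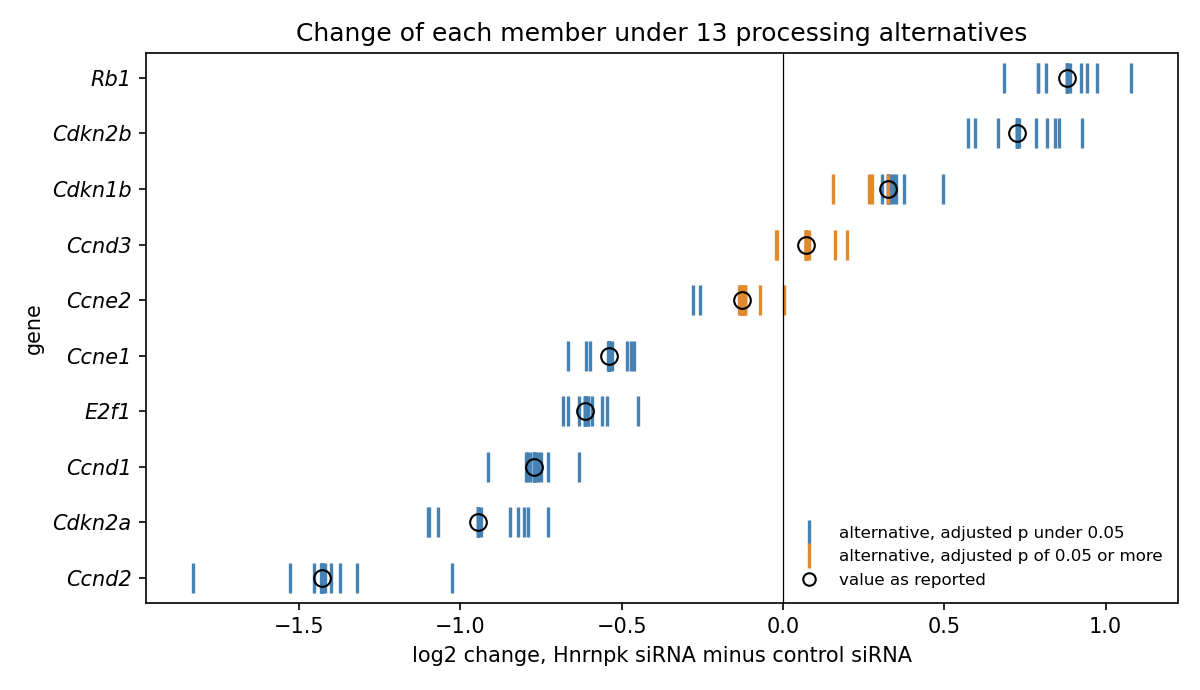
Log2 change of each member as reported (open circle) and under 13 alternatives (ticks), blue where the limma adjusted p was under 0.05 and orange where it was not. Orange ticks occur for Cdkn1b, Ccnd3 and Ccne2.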

How the data were processed

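RNA from TT2 cells was measured in 4 libraries; the labels name both poly(A) selection and removal of ribosomal RNA. The deposited values are RPKM per gene, made by the authors with 1 column per library; BWA, SAMtools and mm9 are named per the submitters' processing notes, while counting, annotation and strand use were not given in the sources used here. RPKM are not counts, so log2(RPKM + 0.5) was fitted with limma 3.58.1 in R 4.3.3 (mean-variance trend, two-sided moderated tests), keeping genes whose mean reached 0.5 RPKM, with Benjamini-Hochberg adjustment over all genes tested. The fit was also run on simulated data in which only a small part of the genes changed. In the data 67.2% of genes were called, so that run does not test the error rate of these calls. The added value understates changes of low genes.

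Positions and overlaps came from GENCODE M21 on GRCm38, another build than mm9, by identifier (92.8% of identifiers matched), with BLAST 2.17.0 at 95% identity over at least 100 bases; start regions came from RefSeq on GRCm38.p6. The members and lists were chosen with earlier results of these data known. Genes named are all members, Hnrnpk, up to 5 called genes per list by adjusted p, the 3 nearest genes to the members with the highest and the lowest change, and neighbouring or overlapping genes; other list genes were named after their values were seen. The 13 alternatives were 0.1 or 1 RPKM added, a minimum mean of 1 RPKM or none, median-ratio scaling, quantile normalization, GC trends removed, no mean-variance trend, each library left out, and a replicate block.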

Additional observations from a re-analysis of the deposited data

How the results depend on the processing

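Of the 10 members, Ccnd1, Ccnd2, Ccne1, Cdkn2a, Cdkn2b, Rb1 and E2f1 kept their direction in all 13 alternatives, as did Hnrnpk. Each also kept its call in every alternative that used all 4 libraries. Calls without 1 library rest on the spread of the other group only. Cdkn1b was not called with no filter on low values (log2 change 0.32) or with GC trends removed (0.27). Its log2 change without 1 library lay between 0.15 and 0.49. Ccne2 was called with GC trends removed (-0.28) and lay between -0.26 and 0.0038 without 1 library. Ccnd3 was -0.021 under quantile normalization and between -0.019 and 0.16 without 1 library. In the alternatives that used all 4 libraries, 7 or 8 of the 10 members were called. In the same alternatives, 3705 to 4760 of all genes were called higher and 3954 to 4900 lower. As reported, 67.2% of all genes tested were called, so these member counts are near the background. The share of all called genes that kept their call was not computed, so the kept calls do not set the members apart. Under quantile normalization the median of the ubiquitin ligase list was -0.036 and the log2 ratio of summed E-type cyclin RPKM was -0.64, against -0.52 as reported. Without 1 library, 3 to 5 of the kinase list and 6 to 9 of the E2F targets were called, and the genes called over the whole table numbered 3155 to 4033 higher and 3552 to 4502 lower. The replicate numbers are shared between groups, but nothing in the labels pairs them: same-numbered libraries deviated together only with a correlation of 0.027 over genes. With a replicate block, 4162 genes were called higher and 4460 lower, and 8 members were called. The causes were not tested. With 2 libraries per group and no counts, estimates for low genes such as Cdkn2b rest on few values and on the variance pooled across genes in limma.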
